A study of Mus musculus with 6 samples.

Results

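The genes described here code for proteins of the growth cone, the motile tip of a growing axon, and they were followed in retinal ganglion cells (RGCs), the neurons whose axons form the optic nerve. The members are the 10 genes Gap43, Basp1, Marcks, Marcksl1, Fscn1, Crmp1, Dpysl2, Dpysl3, Dpysl4 and Dpysl5, found by their symbols among the 24060 genes of the deposited count table. All 10 were in the table and all 10 passed the filter on low counts that left 16449 genes for testing. RGCs of C57BL/6 mice were purified by immunopanning from retinas dissociated with papain, with macrophages removed by antibody before the RGCs were held by antibodies against CD90 (Thy1). RNA was sequenced from 3 samples at embryonic day 18 (E18), when RGCs extend axons readily, and from 3 samples at postnatal day 5 (P5), when this ability has been lost. No animal was genetically modified or treated in this comparison, and the sources used here do not say how many animals or litters made up a sample, so p-values measure the spread between these samples. The E18 column taken as replicate 1 carries the numbers 1, 2 and 5 in its name.

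Growth cones advance as actin filaments push the membrane forward and microtubules invade behind it. GAP-43, CAP-23 (the product of Basp1), MARCKS and its relative MARCKSL1 sit on the inner face of the plasma membrane, where they bind the lipid PIP2 and, in the case of GAP-43 and MARCKS, calmodulin and protein kinase C, and thereby act on the actin beneath. Fascin, the product of Fscn1, ties actin filaments into the bundles of filopodia. The collapsin response mediator proteins (CRMPs), encoded by Crmp1 and Dpysl2 to Dpysl5, are cytosolic proteins that bind tubulin and actin regulators and carry the signal of the repellent semaphorin 3A. GAP-43 in particular is a classical marker of axon growth and of the regenerative state of injured neurons.

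The libraries held 81213639 to 114512853 counts on genes. The members together took 1.10% to 1.40% of them, and each had at least 15010 counts in every sample. Levels are given in CPM, which scales each count to the size of its library after TMM normalization, and a gene was called differentially expressed at an adjusted p below 0.05 in edgeR's quasi-likelihood test with Benjamini-Hochberg adjustment over all genes tested. The 15 RGC markers, Rbpms, Pou4f1 and Thy1 among them, summed to 9457 to 10739 CPM at E18 and 9794 to 10979.9 CPM at P5. The sum covers opposite changes, since 4 of the 15 were higher and 5 lower at E18 (20.8% and 22.5% of all genes tested). Thy1, the antigen used for purification, was lower at E18, at 247 ± 56.2 against 553 ± 120 CPM (SD, n = 3 each, adjusted p = 0.00197 in edgeR). Among the other cell types, the E18 samples stood apart from each other in markers of dividing cells. The summed level of 14 dividing-cell genes was 348, 138 and 83.1 CPM in E18 replicates 1, 3 and 4, against 64.1 to 79.4 CPM at P5. Progenitor genes (12) summed to 651 to 856 CPM at E18 and 519 to 657 CPM at P5. Most of this was Pax6, at 678 ± 65.9 against 549 ± 69.6 CPM (SD, n = 3 each), which did not pass the test (adjusted p = 0.0601 in edgeR). Of the 12 genes, 6 were higher at E18 and 0 lower. Sox2, one of the 6, had 45.7, 69.3 and 0.950 CPM in E18 replicates 1, 3 and 4, against 0.790 to 1.48 CPM at P5. Genes of Müller glia and astrocytes (12) summed to 529 to 625 CPM at E18 and 530.0 to 553 CPM at P5. Amacrine genes (11) summed to 1209 to 1295 CPM at E18 and 1745 to 2221 CPM at P5, a sum to which Calb2, which was lower at E18, gave the most, while 5 others, Tfap2b among them (47.5, 119 and 1.62 CPM in E18 replicates 1, 3 and 4), were higher. Photoreceptor genes (12) reached 27.5 CPM in E18 replicate 1. Endothelial and pericyte genes (9) reached 73.4 CPM there, of which Kdr alone gave 69.5 CPM, while Pecam1, Tek and Rgs5 were lower at E18. Microglial genes (11) stayed at or below 5.18 CPM. No gene of these lists was at 0 in every sample. Their part in the results was not tested, and each member's call is given below with any library whose omission ended it. In such bulk samples, a smaller number of cells that express a gene and less RNA per cell cannot be told apart.

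Growth cone genes were abundant in RGCs at both ages, with ranks from 4 (Dpysl3) to 951 (Fscn1) by mean CPM among the 16449 genes tested, and all of them differed by less than 2-fold between E18 and P5. Gap43, Marcksl1, Fscn1, Crmp1 and Dpysl4 were higher at E18, by 1.21-fold (Dpysl4) to 1.55-fold (Crmp1). Basp1 changed in the opposite direction and was 1.31-fold higher at P5. Marcks, Dpysl2, Dpysl3 and Dpysl5 did not pass the test (adjusted p of 0.248 to 0.631 by edgeR's quasi-likelihood test). Of the 10 members, 6 were thus differentially expressed, where 43.4% of all genes tested were, with 5 higher at E18 against 20.8% of all genes and 1 lower against 22.5%. In the same 6 genes the E18 and P5 values did not overlap, which was the case in 56.1% of all genes tested. The median log2 fold change was 0.23 over the members and 0.00 over all genes, where a positive value is higher at E18. In comparison, 15.9% of all genes both passed the test and changed at least 2-fold. Fold changes below are given with a standard error (SE), the absolute log2 fold change divided by the square root of edgeR's F statistic. The 95% intervals use this SE and a t distribution whose degrees of freedom were solved from the F statistic and its p-value. Among the samples, P5 replicate 9 had the lowest value of all 6 samples in 6 of the 10 members, and E18 replicate 4 the highest in 5 of them.

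**Figure D1:**
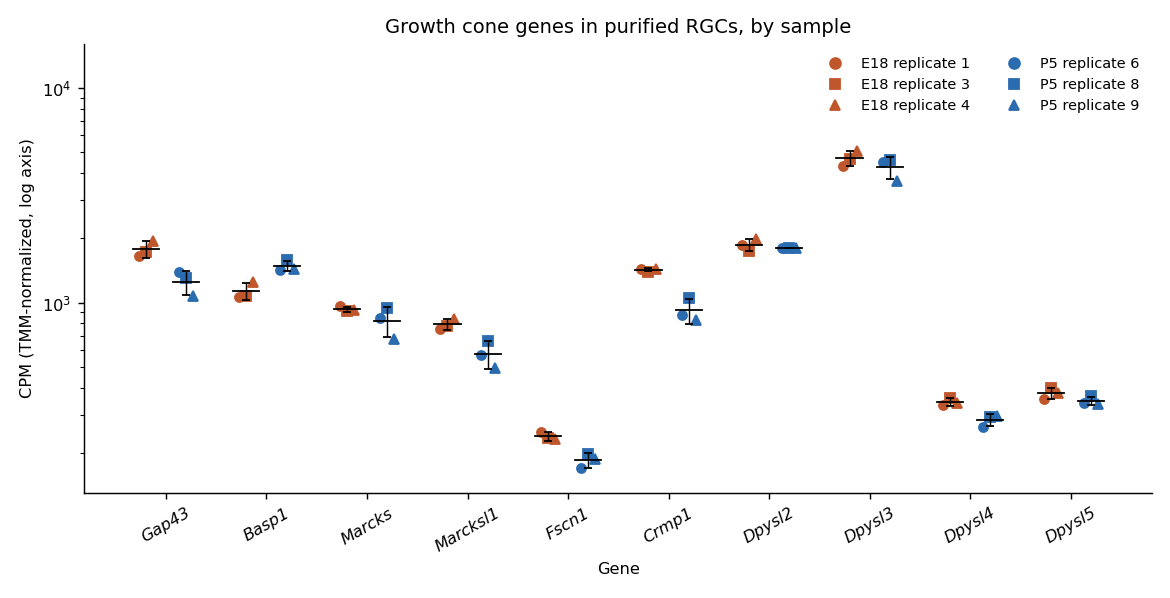
Level of each growth cone gene in every sample, as TMM-normalized CPM on a log axis; points are the 3 E18 (orange) and 3 P5 (blue) samples, and the black line and bars are the mean ± SD. All E18 points of Gap43, Marcksl1, Fscn1, Crmp1 and Dpysl4 lie above the P5 points, those of Basp1 lie below them, and those of Marcks, Dpysl2, Dpysl3 and Dpysl5 overlap.

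Promoter sequences could be matched for 5 of the 10 members (Basp1, Crmp1, Dpysl5, Fscn1 and Marcksl1), and those of the members that changed are shown because they can be read against the direction of each gene. They are RefSeq sequences of GRCm38.p6, the assembly of mm10, each running 5′ to 3′ on the strand of the gene from 250 bases before the start site to 50 bases after it. Crmp1 has a pair of annotated starts, and the deposited RefSeq transcript of Crmp1 begins at the second, at base 37245764. Capitals mark, on either strand, the letters CGGAAG (the core bound by Ets factors such as Elk-1), CANNTG (the E-box of bHLH factors), GGGCGG (the GC box of Sp1) and TATAAA (the TATA box), and neighbouring GC boxes may share bases.
Crmp1, upstream start, higher at E18, plus strand, chr5:37241808-37242107: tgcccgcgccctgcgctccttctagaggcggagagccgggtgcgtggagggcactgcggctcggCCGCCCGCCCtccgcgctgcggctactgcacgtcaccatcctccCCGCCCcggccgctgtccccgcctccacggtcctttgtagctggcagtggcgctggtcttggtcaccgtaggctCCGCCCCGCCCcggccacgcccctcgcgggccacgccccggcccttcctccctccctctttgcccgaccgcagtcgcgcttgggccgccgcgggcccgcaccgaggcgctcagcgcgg
Crmp1, downstream start, higher at E18, plus strand, chr5:37245514-37245813: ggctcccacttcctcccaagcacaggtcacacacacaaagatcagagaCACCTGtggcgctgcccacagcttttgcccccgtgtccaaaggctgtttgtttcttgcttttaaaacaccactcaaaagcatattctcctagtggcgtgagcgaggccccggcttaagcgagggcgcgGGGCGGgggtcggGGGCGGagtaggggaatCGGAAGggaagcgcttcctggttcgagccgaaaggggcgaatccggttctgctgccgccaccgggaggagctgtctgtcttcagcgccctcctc
Marcksl1, higher at E18, plus strand, chr4:129513331-129513630: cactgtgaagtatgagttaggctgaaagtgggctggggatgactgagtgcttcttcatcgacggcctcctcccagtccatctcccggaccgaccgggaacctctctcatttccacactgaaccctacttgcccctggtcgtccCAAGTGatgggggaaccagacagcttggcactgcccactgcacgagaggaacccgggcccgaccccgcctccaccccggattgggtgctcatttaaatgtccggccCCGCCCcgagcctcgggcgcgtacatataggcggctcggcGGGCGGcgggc
Fscn1, higher at E18, plus strand, chr5:142960105-142960404: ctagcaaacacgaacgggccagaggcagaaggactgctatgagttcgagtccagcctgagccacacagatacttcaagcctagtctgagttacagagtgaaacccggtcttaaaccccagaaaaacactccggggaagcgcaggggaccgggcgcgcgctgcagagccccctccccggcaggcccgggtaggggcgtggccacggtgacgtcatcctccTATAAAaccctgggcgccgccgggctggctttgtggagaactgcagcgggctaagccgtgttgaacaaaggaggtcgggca
Basp1, lower at E18, minus strand, chr15:25413715-25414014: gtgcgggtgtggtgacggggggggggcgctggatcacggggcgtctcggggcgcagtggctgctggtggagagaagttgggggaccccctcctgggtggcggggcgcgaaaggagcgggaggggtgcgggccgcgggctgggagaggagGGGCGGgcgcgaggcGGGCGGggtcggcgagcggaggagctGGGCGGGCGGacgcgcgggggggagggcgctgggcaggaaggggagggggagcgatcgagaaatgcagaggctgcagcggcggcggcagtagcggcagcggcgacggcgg

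Base composition and short motifs differed among these promoters. G and C made up 78.0% of the Basp1 sequence, 77.0% at the upstream and 61.0% at the downstream start of Crmp1, 63.7% of Marcksl1 and 61.7% of Fscn1. The Ets core was found in 1 of the 5 windows, the downstream Crmp1 start, at position -44 from the start site, against 16.9% of the 32851 RefSeq promoters of this length. GC boxes were found in 4 of the 5, with 5 and 2 at the Crmp1 starts, 2 in Marcksl1 and 4 in Basp1, against 35.7% of all promoters. Fscn1 held no GC box and was the only window of the 5 with a TATA box, at position -31, against 13.6% of all promoters. An E-box was found in Marcksl1 and at the downstream Crmp1 start, against 72.3% of all promoters. The window of Dpysl5, a member that did not pass the test, is not among the 5. It held 1 GC box, at position -32, and 1 E-box, at position -167, with 0 Ets cores and 0 TATA boxes. GC boxes thus occurred in genes that were higher at E18, in Basp1, which was lower, and in Dpysl5, which did not pass. Such matches are descriptions of these letters, not of binding.

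Gap43 (ENSMUSG00000047261.9, chromosome 16 of mm10, 42248442 to 42340651, minus strand) had 1652, 1722 and 1944 CPM in E18 replicates 1, 3 and 4 and 1381, 1296 and 1068 CPM in P5 replicates 6, 8 and 9. Every E18 sample lay above every P5 sample, and P5 replicate 9 was the lowest. The means were 1773 ± 153 CPM (SD, n = 3) at E18 and 1248 ± 162 CPM (SD, n = 3) at P5. The gene was 1.42-fold higher at E18 (log2 fold change 0.51 with SE 0.114, adjusted p = 0.00804 in edgeR), and the 95% interval of the log2 fold change was 0.25 to 0.76. The call held without each sample in turn, with log2 fold changes of 0.40 to 0.57. Even at P5, Gap43 remained at 1068 CPM or more, and its mean over the 6 samples ranked at position 30 of the genes tested.

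Basp1 (ENSMUSG00000045763.8, chromosome 15 of mm10, 25363277 to 25413764, minus strand), which codes for the GAP-43-like protein CAP-23, was the only member that was lower at E18. Its values were 1065, 1072 and 1247 CPM in E18 replicates 1, 3 and 4 and 1425, 1575 and 1440.2 CPM in P5 replicates 6, 8 and 9, so all E18 samples lay below all P5 samples. The means were 1128 ± 103 CPM (SD, n = 3) at E18 and 1480.0 ± 82.7 CPM (SD, n = 3) at P5. The difference passed the test (log2 fold change -0.39 with SE 0.0930, adjusted p = 0.0101 in edgeR). The 95% interval of the log2 fold change was -0.60 to -0.18. Without E18 replicate 3 the gene just missed the threshold, with a log2 fold change of -0.35 and an adjusted p of 0.0520 in edgeR.

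Gap43 and Basp1 can be set against each other within a sample, where library scaling cancels. These ratios were chosen after the values of the genes were seen. Per kilobase of exon, the ratio of Gap43 to Basp1 was 2.03, 2.10 and 2.04 in E18 replicates 1, 3 and 4 and 1.27, 1.08 and 0.969 in P5 replicates 6, 8 and 9. Gap43 transcripts were thus about 2.05 ± 0.0392 times as abundant as those of Basp1 at E18 and 1.10 ± 0.151 times at P5 (SD over 3 samples in both cases), with no overlap between the ages and near equality at P5. The log2 ratio differed by 0.90 between the ages. Gap43 was higher and Basp1 lower in every E18 sample than in any P5 sample, so the ratios could not overlap. The exact two-sided permutation p was therefore fixed at 0.1, the smallest that 3 samples against 3 allow, and adds nothing to the calls of these genes.

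**Figure D2:**
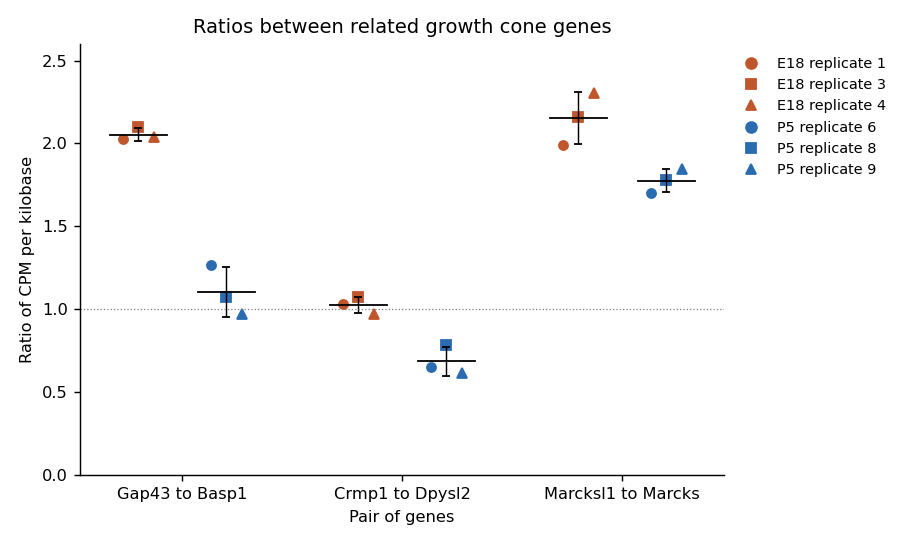
Ratios of CPM per kilobase of exon between related genes, in the 3 E18 (orange) and 3 P5 (blue) samples, with the mean ± SD in black and a dotted line at equal levels. The ratio of Gap43 to Basp1 lies at 2.03 to 2.10 at E18 and at 0.969 to 1.27 at P5, and the other pairs differ in the same direction by less.

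Of Marcks and Marcksl1, a pair of relatives that bind calmodulin and are substrates of protein kinase C, Marcksl1 passed the test and Marcks did not. Marcksl1 (ENSMUSG00000047945.6, chromosome 4 of mm10, 129513581 to 129515985, plus strand) had 757, 779.7 and 842 CPM in E18 replicates 1, 3 and 4 and 572, 664 and 495 CPM in P5 replicates 6, 8 and 9. The ages did not overlap, and the gene was 1.37-fold higher at E18 (log2 fold change 0.46 with SE 0.114, adjusted p = 0.0124 in edgeR). Its call held without each sample in turn, with log2 fold changes of 0.36 to 0.55. Marcks (ENSMUSG00000069662.5, chromosome 10 of mm10, 37133375 to 37138920, minus strand) had 959.5, 911 and 921 CPM in E18 replicates 1, 3 and 4 and 847, 939.6 and 678 CPM in P5 replicates 6, 8 and 9. The E18 samples of Marcks lay close together, whereas P5 replicate 8 fell among them and P5 replicate 9 was well below. The difference did not pass the test (log2 fold change 0.18 with SE 0.119, adjusted p = 0.248 in edgeR), with a 95% interval of -0.09 to 0.45. That interval overlapped the interval of Marcksl1, 0.20 to 0.72, and the difference between the genes was not tested. Without P5 replicate 9 the log2 fold change of Marcks was 0.06, and without P5 replicate 8 it was 0.27. Within samples, the ratio of Marcksl1 to Marcks per kilobase was 1.99, 2.16 and 2.30 in E18 replicates 1, 3 and 4 and 1.70, 1.78 and 1.84 in P5 replicates 6, 8 and 9, higher in every E18 sample than in any P5 sample (log2 difference 0.28, exact two-sided permutation p = 0.1).

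Fscn1 (ENSMUSG00000029581.14, chromosome 5 of mm10, 142960343 to 142973185, plus strand), whose product bundles the actin of filopodia, had 250.1, 233 and 231 CPM in E18 replicates 1, 3 and 4 and 169, 197 and 188 CPM in P5 replicates 6, 8 and 9. The E18 samples were all above the P5 samples, and the gene was 1.29-fold higher at E18 (log2 fold change 0.37 with SE 0.0902, adjusted p = 0.0118 in edgeR; 95% interval 0.16 to 0.57). E18 replicate 1, the sample with the highest level of dividing-cell genes, was also the highest for Fscn1, and a link between these was not tested. Without E18 replicate 1 the adjusted p was 0.0515 in edgeR at a log2 fold change of 0.33. It was 0.00803 (without P5 replicate 8) to 0.0464 (without P5 replicate 6) when any other sample was left out. Its relatives Fscn2, the fascin of photoreceptors, and Fscn3 had much lower levels, with 1.93 ± 0.177 against 1.29 ± 0.255 CPM and 0.321 ± 0.0816 against 0.0831 ± 0.0374 CPM (SD, n = 3 each). Fscn3 was higher at E18 by 3.86-fold (adjusted p = 0.00822 in edgeR), and Fscn2 did not pass the test (adjusted p = 0.0729 in edgeR).

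Of the 5 CRMP genes, 2 passed the test and 3 did not. Crmp1 and Dpysl4 were higher at E18, and Dpysl2, Dpysl3 and Dpysl5 did not pass the test, although all 5 log2 fold changes were positive. The genes are related in sequence, and their counts could in principle share reads. The longest run of identical bases between the deposited RefSeq transcripts of any pair was 29 bases, where a read has 100 bases. Other transcripts of these genes were not compared, and sharing of reads was not tested. No other annotated gene shares exon bases with any of the 10 members, in either orientation.

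Crmp1 (ENSMUSG00000029121.16, chromosome 5 of mm10, 37241940 to 37292133, plus strand), a mediator of semaphorin 3A signalling, showed the largest change of the members. It had 1430.4, 1393 and 1440.2 CPM in E18 replicates 1, 3 and 4 and 872, 1055 and 829 CPM in P5 replicates 6, 8 and 9. The E18 samples lay close together, and all were above the P5 samples, of which replicate 8 was the highest. The means were 1421 ± 24.7 CPM (SD, n = 3) at E18 and 919 ± 119.8 CPM (SD, n = 3) at P5, a 1.55-fold difference (log2 fold change 0.63 with SE 0.102, adjusted p = 0.00197 in edgeR; 95% interval 0.40 to 0.86). The call held without each sample in turn, at log2 fold changes of 0.56 to 0.72. Counts per gene do not separate the transcripts from the upstream and downstream starts shown above.

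Dpysl4 (ENSMUSG00000025478.15, chromosome 7 of mm10, 139086001 to 139102704, plus strand), which codes for CRMP3, had 334, 361 and 339 CPM in E18 replicates 1, 3 and 4 and 264, 292 and 296 CPM in P5 replicates 6, 8 and 9. The ages did not overlap, and the difference was small, at 1.21-fold (log2 fold change 0.28 with SE 0.0853, adjusted p = 0.0280 in edgeR). This was the least stable call of the members, and it was lost without E18 replicate 1, 3 or 4 (adjusted p of 0.0608, 0.115 and 0.0647 in edgeR) and without P5 replicate 6 (0.0886).

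Dpysl2 (ENSMUSG00000022048.8, chromosome 14 of mm10, 66802864 to 66868688, minus strand), which codes for CRMP2, a tubulin-binding protein that promotes axon formation, was the most even member. It had 1856, 1737 and 1976 CPM in E18 replicates 1, 3 and 4 and 1789.8, 1793 and 1794 CPM in P5 replicates 6, 8 and 9. The P5 samples were nearly identical and lay inside the range of the E18 samples (log2 fold change 0.05 with SE 0.0791, adjusted p = 0.631 in edgeR). The 95% interval of -0.13 to 0.23 ended below the log2 fold changes of Gap43 and Crmp1, a difference between genes that was not tested. Dpysl5 (ENSMUSG00000029168.14, chromosome 5 of mm10, 30711564 to 30799375, plus strand), which codes for CRMP5, had 357, 400.4 and 379 CPM in E18 replicates 1, 3 and 4 and 339.7, 367 and 338 CPM in P5 replicates 6, 8 and 9, and P5 replicate 8 lay among the E18 samples (log2 fold change 0.12 with SE 0.0848, adjusted p = 0.273 in edgeR; 95% interval -0.07 to 0.31). Both genes thus overlapped between the ages.

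Dpysl3 (ENSMUSG00000024501.20, chromosome 18 of mm10, 43320984 to 43438286, minus strand), which codes for CRMP4, was the most abundant member by counts and ranked at position 4 of all genes tested. It had 4319, 4677 and 5094 CPM in E18 replicates 1, 3 and 4 and 4506, 4621 and 3699 CPM in P5 replicates 6, 8 and 9. P5 replicates 6 and 8 lay among the E18 samples and P5 replicate 9 below them, and the difference did not pass the test (log2 fold change 0.14 with SE 0.106, adjusted p = 0.328 in edgeR; 95% interval -0.11 to 0.38). Without P5 replicate 9 the log2 fold change was 0.04.

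**Figure D3:**
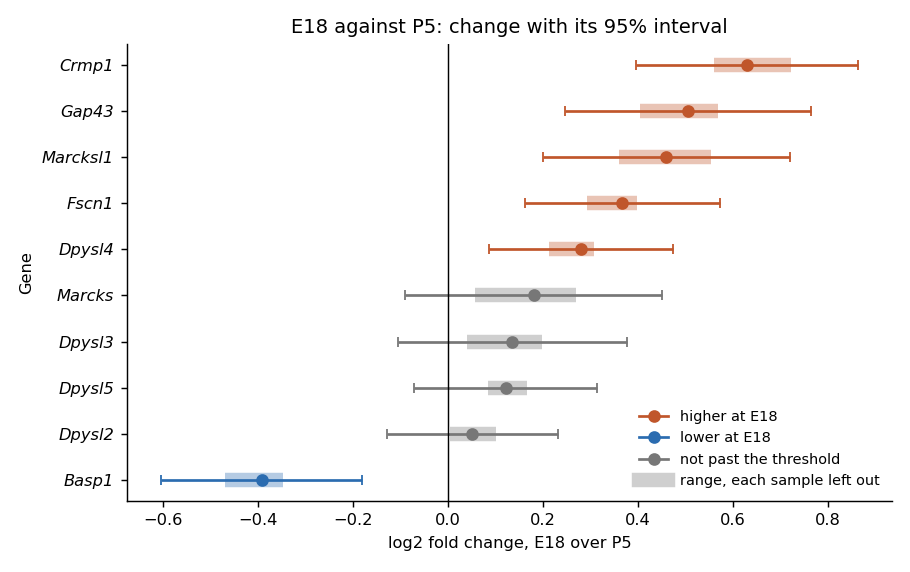
Log2 fold change of each growth cone gene, E18 over P5, with a 95% interval derived from edgeR's test (bars) and the range of the value over the fits that omit a single sample (shaded band). Crmp1 stands highest at 0.63, Basp1 is the only gene below 0 at -0.39, and the intervals of Marcks, Dpysl3, Dpysl5 and Dpysl2 include 0.

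The make-up of the CRMP family was compared per kilobase of exon, the scale on which levels of different genes can be set side by side. By exon lengths from the annotation, Dpysl3 made up the largest share in every sample, from 42.1% in E18 replicate 1 to 48.8% in P5 replicate 6. The shares themselves depend on these lengths. The E18 mean of Dpysl3 was 773 CPM per kilobase by the annotated length and 2230 by that of the deposited RefSeq transcript, while Crmp1 had 420 and 489. In percent of the family, Crmp1 made up 25.0, 23.9 and 23.0% in E18 replicates 1, 3 and 4 and 17.0, 19.4 and 17.7% in P5 replicates 6, 8 and 9. Its share was 24.0% ± 1.02 at E18 and 18.05% ± 1.26 at P5 (SD over 3 samples in both cases) without overlap. Dpysl2 took 23.4% ± 1.03 at E18 and 26.5% ± 2.03 at P5, also without overlap. For both genes the exact two-sided permutation p was 0.1, the smallest possible for 3 samples against 3, and 0.25 after adjustment over the 5 genes. Shares within a family are bound to each other, so a larger share of Crmp1 at E18 leaves less for the others. The level of Dpysl2 itself did not pass the test (log2 fold change 0.05, adjusted p = 0.631 in edgeR). The shares of Dpysl3, Dpysl4 and Dpysl5 overlapped between the ages (exact permutation p of 0.3, 0.7 and 0.3). The sizes depend on the lengths used, since the difference of 5.92 percentage points for Crmp1 was 3.92 with the lengths of the deposited RefSeq transcripts, and that of -3.10 for Dpysl2 was -1.35. By the annotated lengths, Crmp1 and Dpysl2 were at about equal level at E18, with ratios of 1.03, 1.07 and 0.973 in E18 replicates 1, 3 and 4. The ratios were 0.651, 0.786 and 0.617 in P5 replicates 6, 8 and 9, so that every P5 sample had more Dpysl2 than Crmp1 transcript. By the deposited lengths, Crmp1 and Dpysl2 had means of 489 and 411 CPM per kilobase at E18 and of 316 and 397 at P5.

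**Figure D4:**
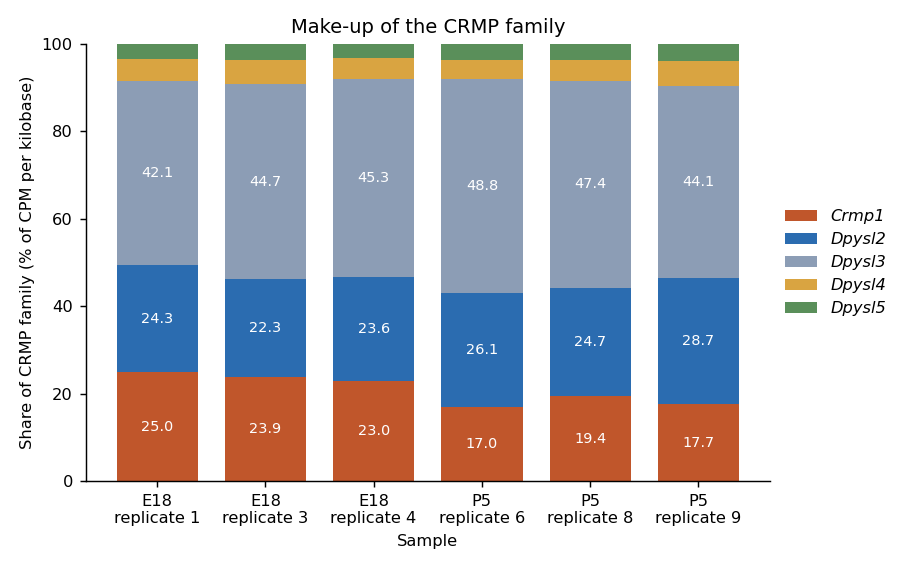
Share of each CRMP gene in the summed CPM per kilobase of the family, in percent, for each of the 6 samples, by exon lengths from the annotation. The Crmp1 segment is 23.0% to 25.0% at E18 and 17.0% to 19.4% at P5, while Dpysl3 is the largest segment in all 6.

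Over all members, Gap43 had the highest mean level per kilobase and Dpysl5 the lowest at both ages, by exon lengths from the annotation. At E18 the order was Gap43 (1248 ± 108 CPM per kilobase, SD, n = 3), Dpysl3 (773 ± 63.9), Basp1 (608 ± 55.7), Marcksl1 (494 ± 27.4), Crmp1 (420.0 ± 7.31), Dpysl2 (411 ± 26.4), Marcks (229.9 ± 6.26), Dpysl4 (90.4 ± 3.69), Fscn1 (89.0 ± 3.93) and Dpysl5 (60.1 ± 3.43). Crmp1 with Dpysl2 and Dpysl4 with Fscn1 overlapped in their ranges at E18, and the other neighbours did not. At P5, Gap43 (879 ± 114) overlapped with Basp1 (798 ± 44.6), which now stood before Dpysl3 (704 ± 82.7). Dpysl2 (397 ± 0.518) stood before Marcksl1 (359 ± 52.5) and Crmp1 (272 ± 35.4), with overlap between each of these neighbours. Marcks, Dpysl4, Fscn1 and Dpysl5 closed the order at P5 as at E18. The first rank depends on the length used for Dpysl3, which is 6074 bases over its annotated protein-coding transcripts. It is 2106 bases in the GENCODE transcript linked to the deposited RefSeq identifier. With the latter, Dpysl3 stood first at both ages, with 2230.2 ± 184 CPM per kilobase at E18 and 2030.1 ± 239 at P5 (SD, n = 3), ahead of Gap43, and Fscn1 in place of Dpysl5 was the lowest at P5. The counts are per gene, so the length of a single transcript may leave out bases that were counted. Which length fits these counts was not tested.

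Likeness between genes was measured as the root-mean-square difference of their log2 CPM values over the 6 samples, each gene centred on its own mean. The samples share library and age, so this is a description. Among the members, Marcksl1 was nearest to Gap43 (0.0946) and Basp1 farthest (0.467), where the median of the 9724 genes compared was 0.312. Of all pairs of members, Fscn1 and Dpysl4 were most alike (0.0804). Outside the members, the 5 genes most like Gap43 among those averaging 10 CPM or more were Msantd2 (0.0239), 1600029O15Rik (0.0361), Plk2 (0.0448), Egfem1 (0.0477) and Akap12 (0.0501). Plk2, a kinase induced by neuronal activity, had 176, 196 and 206 CPM in E18 replicates 1, 3 and 4 and 150.1, 144 and 111 CPM in P5 replicates 6, 8 and 9. Akap12, an anchoring protein for protein kinases A and C, had 513 ± 50.9 against 366 ± 35.3 CPM for E18 and P5 (SD, n = 3 each).

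Genes for partners of the GAP-43-type proteins were more often lower than higher at E18. Of a list of 20 genes for calmodulin binding and signalling, protein kinase C, calcineurin, palmitoylating enzymes and proteins that bind Gap43 mRNA, 5 were higher and 11 lower at E18 in edgeR (20.8% and 22.5% of all genes tested), with a median log2 fold change of -0.29. Pcp4, which codes for a small calmodulin-binding protein with the same IQ motif as GAP-43, was 4.48-fold higher at P5, at 71.9 ± 22.8 against 322 ± 63.1 CPM (log2 fold change -2.16 with SE 0.233, adjusted p = 0.000378 in edgeR). Prkca, a protein kinase C, was lower at E18 (42.3 ± 2.80 against 78.7 ± 13.7 CPM; log2 fold change -0.89 with SE 0.134, adjusted p = 0.00137 in edgeR), whereas Prkcd was higher (141 ± 9.71 against 96.0 ± 8.67 CPM; log2 fold change 0.55, adjusted p = 0.00308 in edgeR). Among the genes for proteins that bind Gap43 mRNA, Igf2bp1 had 22.3, 22.4 and 15.3 CPM in E18 replicates 1, 3 and 4 and 0.496, 1.31 and 0.0957 CPM in P5 replicates 6, 8 and 9 (log2 fold change 4.97 with SE 0.648, adjusted p = 0.000816 in edgeR). Khsrp, whose product destabilizes the mRNA, was 1.34-fold higher at E18 (log2 fold change 0.42 with SE 0.120, adjusted p = 0.0220 in edgeR), and Elavl4, the gene of the stabilizing protein HuD, did not pass the test (log2 fold change 0.31, adjusted p = 0.0526 by edgeR).

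Of 28 genes of growth cone actin, 7 were higher and 5 lower at E18, and 16 did not pass (20.8% higher and 22.5% lower over all genes tested), with a median log2 fold change of 0.08. Enah, an Ena/VASP protein that extends filopodial actin alongside fascin, was 1.70-fold higher at E18 (205 ± 16.1 against 120.5 ± 22.2 CPM; log2 fold change 0.77 with SE 0.137, adjusted p = 0.00289 in edgeR). Tmsb10, a thymosin that binds actin monomers, and Dbn1, which codes for the actin-binding protein drebrin, were higher at E18 as well (log2 fold changes 0.56 and 0.49, adjusted p = 0.00308 and 0.00424 by edgeR). Lower at E18 were Cap2, a cyclase-associated protein (9.26 ± 1.23 against 37.7 ± 14.6 CPM; log2 fold change -2.03 with SE 0.282, adjusted p = 0.00104 in edgeR), the WAVE subunit Wasf3 and the actin-severing factor destrin, Dstn (log2 fold changes -0.69 and -0.51, adjusted p = 0.00311 and 0.00242 by edgeR).

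Of 26 genes for kinases that phosphorylate CRMPs and for semaphorin signalling, 6 were higher and 4 lower at E18, against 20.8% and 22.5% of all genes tested, and the count of 10 fell to 6 without E18 replicate 3. The median log2 fold change was 0.00. Plxna3, a receptor subunit for semaphorin 3A, was 2.17-fold higher at E18 (278 ± 25.2 against 128 ± 25.2 CPM; log2 fold change 1.12 with SE 0.143, adjusted p = 0.000769 in edgeR), and of the flavoprotein oxidases of this pathway, Mical1 and Mical3 were higher (log2 fold changes 0.92 and 0.61, adjusted p = 0.00137 and 0.00168 by edgeR). The remaining oxidase gene, Mical2, was 7.21-fold higher at P5 (1.41 ± 0.469 against 10.1 ± 4.56 CPM; log2 fold change -2.85 with SE 0.366, adjusted p = 0.000779 in edgeR). The co-receptors differed, since Nrp2 was lower at E18 (95.2 ± 4.74 against 165 ± 1.35 CPM; log2 fold change -0.80 with SE 0.0817, adjusted p = 0.000336 in edgeR) and Nrp1 did not pass (254 ± 22.2 against 253 ± 38.1 CPM; adjusted p = 0.985 by edgeR). Among the CRMP kinases and their activators, Cdk5r1 and Cdk5r2 went opposite ways, as did Gsk3a and Gsk3b. The other kinases, Cdk5, Rock1, Rock2, Fyn, Fes and Dyrk2, did not pass the test (adjusted p of 0.0928 to 0.843 by edgeR). Of the activators of Cdk5, Cdk5r1 was higher at E18 (559 ± 20.4 against 398 ± 55.4 CPM) and the less abundant Cdk5r2 lower (14.8 ± 4.43 against 25.9 ± 3.86 CPM), with log2 fold changes of 0.49 and -0.81 (adjusted p = 0.00780 and 0.0138 by edgeR). Gsk3b was higher and Gsk3a lower at E18 (log2 fold changes 0.33 and -0.25, adjusted p = 0.0168 and 0.0478 by edgeR).

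Gap43 and Basp1 are also known as regeneration-associated genes, which peripheral neurons switch on after injury. Of 20 other genes of that kind, 18 had enough counts, 7 were higher and 3 lower at E18 (20.8% and 22.5% over all genes tested), with a median log2 fold change of 0.33. Sox11, a transcription factor of growing neurons, changed more than any member (869 ± 63.6 against 209 ± 83.3 CPM, 4.17-fold; log2 fold change 2.06 with SE 0.268, adjusted p = 0.000806 in edgeR). Jun and Klf7 were 2.27-fold and 1.64-fold higher at E18 (adjusted p = 0.00607 and 0.00502 by edgeR). The small heat shock protein gene Hspb1 was lower at E18, with 2.17, 1.56 and 1.73 CPM in E18 replicates 1, 3 and 4 and 30.5, 14.4 and 42.7 CPM in P5 replicates 6, 8 and 9 (log2 fold change -4.01 with SE 0.378, adjusted p = 0.000248 in edgeR), as was the neuropeptide gene Adcyap1 (log2 fold change -0.94, adjusted p = 0.00630 by edgeR).

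**Figure D5:**
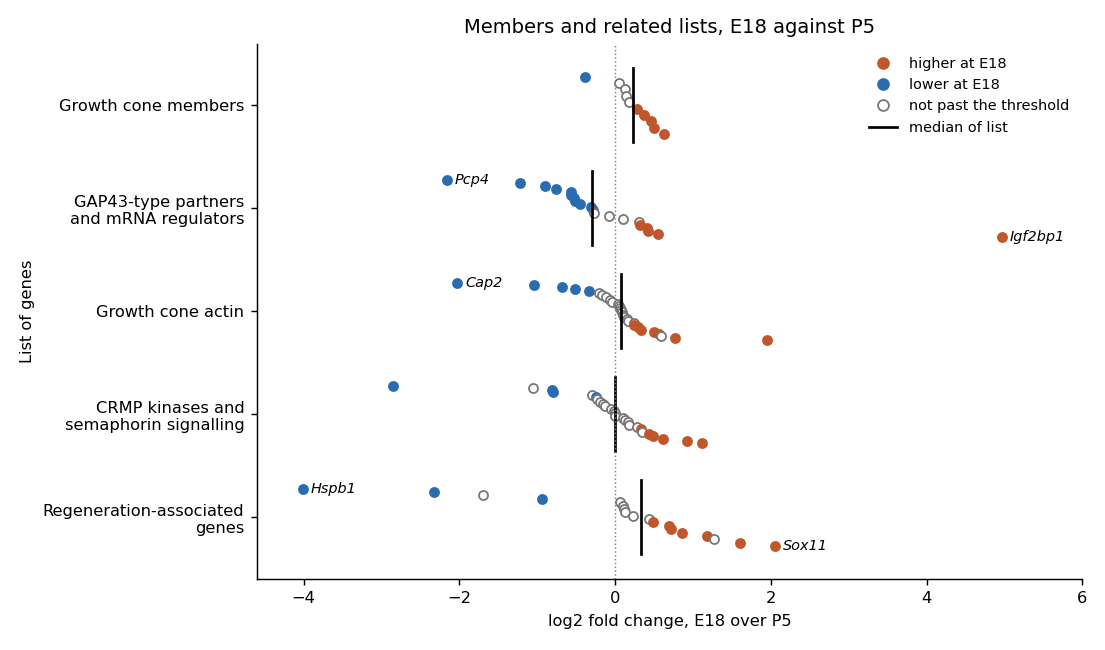
Log2 fold change, E18 over P5, of the growth cone members and of each tested gene in 4 related lists; filled points passed edgeR's test, open points did not, and the vertical line is the median of each list. The members span -0.39 to 0.63, and named genes of the 4 lists reach from -4.01 (Hspb1) to 4.97 (Igf2bp1). The lists hold more genes, some at very low levels, so the ranges do not compare directly. The median absolute log2 fold change was 0.32 over the members and 0.39 over all genes tested. It was 0.49 for GAP43-type partners, 0.22 for growth cone actin, 0.27 for CRMP kinases and semaphorin signalling, and 0.79 for regeneration-associated genes.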

How the data were processed

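RGC libraries were prepared with TruSeq and RiboZero Gold, which removes ribosomal RNA, although the labels name polyA RNA. Per the labels and methods, the authors aligned 100-base paired reads to mm10 with STAR 2.4.0, counted reads per gene with HT-seq 0.6.1 and used edgeR, and the processing notes also name CASAVA 1.8.2. Strand setting and treatment of reads with several matches are not given in the sources used here. The deposited table held raw counts for 6 samples and also the authors' edgeR comparison columns (fold changes and p-values), which were not used. Each count column was matched to its sample by name, and no other column of sample values was present.

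Counts were filtered with filterByExpr, normalized by TMM and tested with edgeR 4.0.16 (quasi-likelihood, Benjamini-Hochberg, threshold 0.05) in R 4.3.3, first on simulated data. DESeq2 1.42.0 and other settings were tried as alternatives. Shares and ratios were compared by exact two-sided permutation tests over samples. Depth was 81213639 to 114512853 counts. Positions and exon lengths come from GENCODE on mm10, with exons of protein-coding transcripts in its basic set. Starts, lengths and sequences given for deposited RefSeq transcripts are those of the GENCODE transcripts linked to the deposited RefSeq identifiers.

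The members and lists were chosen with earlier results of these data known. From each list, up to 3 genes with the largest rise and up to 3 with the largest fall are named, among those past the threshold with a mean of at least 10 CPM, along with the 5 genes most like Gap43. Cdk5, Cdk5r1, Dyrk2, Elavl4, Fes, Fscn2, Fscn3, Fyn, Gsk3b, Mical2, Nrp1, Rock1, Rock2 and the single marker genes were named after their values were seen. A gene that this rule names is not reported here.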

Additional observations from a re-analysis of the deposited data

How the results depend on the processing

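No paired analysis was possible because the E18 and P5 samples share no replicate numbers in the labels. Other normalizations, filters and tests (upper-quartile, DESeq2 size factors, total counts only, no filter, at least 1 CPM in 3 samples, edgeR's exact and likelihood ratio tests, DESeq2) called 6331 to 7634 genes, and the same 6 members in each. Leaving out 1 sample at a time gave 4575 to 8796 genes (4575 without E18 replicate 3) and 4 to 6 members. The log2 fold change of Fscn1 was 0.29 to 0.40, and the call was lost without E18 replicate 1 (0.33). That of Basp1 was -0.47 to -0.35, and the call was lost without E18 replicate 3 (-0.35). That of Dpysl4 was 0.21 to 0.31, and the call was lost without E18 replicate 1 (0.31), 3 (0.25) or 4 (0.29) and without P5 replicate 6 (0.21). Genes called among CRMP kinases and semaphorin signalling numbered 6 to 15 (10 with all samples). With CPM not divided by length, the E18 minus P5 difference in the Crmp1 share was 4.33 percentage points in place of 5.92, and with the lengths of the deposited RefSeq transcripts, chosen after seeing the data, it was 3.92, and that of Dpysl2 was -1.35 in place of -3.10. Fewer samples remained in each fit without a sample, and other causes of these shifts were not tested. No value of those tested with another setting reversed a call. With 3 samples a group, exact tests over samples could not go below 0.1, and no group was large enough for a check for outlying samples.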

Other observations

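Over all genes tested, 20.8% were higher and 22.5% lower at E18 in edgeR's quasi-likelihood test. Among the genes that mark RGCs themselves, 4 of 15 were higher and 5 lower at E18, with a median log2 fold change of -0.05, so the markers of the purified cells did not move in 1 direction. Dividing-cell genes were higher at E18 in 9 of 14 and lower in 0, with a median log2 fold change of 1.58, and retinal progenitor genes were higher in 6 of 12 and lower in 0, with a median of 2.34. Amacrine genes were higher in 5 of 10 tested and lower in 2, the 5 that were higher had log2 fold changes of 2.43 (Prox1) to 5.39 (Tfap2b), and these 5 had their largest values in E18 replicates 1 and 3.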
